A study of Macaca mulatta with 12 samples.

Results

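TRBV7-10 is 1 of the 61 variable (V) gene segments named as first hit in the T cell receptor beta chain (TRB) repertoires of rhesus monkeys given infusions of apoptotic donor leukocytes (ADLs). Its clonotypes were the entries whose first listed V gene was TRBV7-10, where a clonotype is 1 CDR3 nucleotide sequence with its count. There were 1509 of them among 218326 clonotypes in all 12 libraries. The gene was chosen by its measured share in each library, which was above 1% in some repertoires and close to 0 in others, so those shares are described here and carry no test.

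The libraries were made from RNA of peripheral blood leukocytes (PBLs) to follow T cell clones around ADL infusions on day -7 and day 1 relative to an intended transplant on day 0. ADLs are leukocytes of the donor made apoptotic before they are given, and the monkeys were also under transient immunosuppression. Of the 12 libraries, 4 were labelled baseline and carry other animal codes than the later ones. The other 8 were labelled Amazo, Nebula or Rocket and taken after infusion: 3 at day -5 (2 days after the first infusion), 3 at day -4 (3 days after it), 1 Nebula library at day 0 (7 days after it) and 1 Amazo library at day 3 (2 days after the second infusion). The series text gives the infusion days used here, while a legend of the study puts the second infusion on day 0. The label of the day 3 library, 2 days after the second infusion, matches day 1. No library came from a monkey given immunosuppression without ADLs, and each animal and day had 1 library.

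A TRB gene is assembled in the thymus by joining 1 V, 1 D and 1 J segment, with bases trimmed and added at the joints. The joint encodes CDR3, the loop of the receptor that touches the presented peptide, while the V segment supplies the first letters of CDR3 and the other antigen-facing loops. A joint that shifts the reading frame or creates a stop codon yields no beta chain, and such nonproductive rearrangements are seen because the cell also carries a productive one. V segments differ between individuals in sequence and in number, and those of 1 subgroup, such as TRBV7, are close in sequence.

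The letters that TRBV7-10 lends to CDR3 are shown first, because they decide what a CDR3 alone can tell about its V gene. The most frequent base at each position of the V-encoded start of CDR3, read 5′ to 3′ from clonotypes of the 8 later libraries, was as follows, with capitals where a gene differed from TRBV7-10.
TRBV7-10: tgtgccagcagcttagc
TRBV7-9: tgtgccagcagcttagc
TRBV7-7: tgtgccagcagcttagc
TRBV7-6: tgtgccagcagcttagc
TRBV7-5: tgtgccagcagcttagc
TRBV7-4: tgtgccagTagcttagc
TRBV7-3: tgtgccagcagcttaAT
All 17 bases were the same in TRBV7-10, TRBV7-5, TRBV7-6, TRBV7-7 and TRBV7-9. TRBV7-4 differed at 1 base and TRBV7-3 at 2. CDR3 letters therefore do not tell TRBV7-10 from those 4 genes, and the V call rested on the part of the read before CDR3.

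The CDR3 sequences of the clones on which the results turn are printed next, 5′ to 3′. Capitals mark the bases that MiXCR, the program used to assemble clones, assigned to the V segment. Clones A to C were the largest TRBV7-10 clones of the Nebula libraries, and clones D and E the largest of the Amazo day -4 library.
clone A: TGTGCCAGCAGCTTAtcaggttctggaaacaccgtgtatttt
clone B: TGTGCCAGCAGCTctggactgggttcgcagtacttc
clone C: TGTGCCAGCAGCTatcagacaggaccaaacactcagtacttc
clone D: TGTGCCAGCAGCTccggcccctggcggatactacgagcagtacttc
clone E: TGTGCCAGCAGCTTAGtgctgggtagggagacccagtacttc
Clones F to L were found in libraries that otherwise almost lacked the gene, and are shown because it matters whether the same letters occurred elsewhere. Clone M was the TRBV7-10 clone of a baseline library.
clone F: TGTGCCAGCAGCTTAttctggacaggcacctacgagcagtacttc
clone G: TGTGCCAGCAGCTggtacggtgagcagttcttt
clone H: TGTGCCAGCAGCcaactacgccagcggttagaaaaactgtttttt
clone I: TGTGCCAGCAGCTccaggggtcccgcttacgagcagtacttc
clone J: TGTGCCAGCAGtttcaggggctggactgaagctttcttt
clone K: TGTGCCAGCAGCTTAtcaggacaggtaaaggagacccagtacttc
clone L: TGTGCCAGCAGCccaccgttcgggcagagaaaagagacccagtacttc
clone M: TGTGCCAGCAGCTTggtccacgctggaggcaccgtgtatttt

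Before the gene's values, the libraries were compared by clonotypes of all V genes except TRBV7-10, since their overlap went against some of the animal names. Which names are at fault cannot be told from the overlap. The measure was the Morisita-Horn index, which is 0 when no clonotype is shared and 1 when the same clonotypes occur at the same shares. The Amazo day -5, Amazo day 3, Rocket day -5 and Rocket day -4 libraries had indices of 0.896 to 0.977 in their 6 pairs, across 2 animal names. The 3 Nebula libraries had 0.764 to 0.905. The Amazo day -4 library overlapped little with any other, and the index of the 19 pairs between these sets was at most 0.0116. That index was of Amazo day -4 with Amazo day -5. The next highest was 0.00116, of Amazo day -5 with Nebula day 0. The labels call Amazo day -4 the same animal as Amazo day -5, yet these 2 libraries shared only 260 clonotypes other than those of TRBV7-10. That was still the most of any pair between the sets, the next being 111 in Amazo day -5 and Nebula day -5. The 8 libraries thus held 3 repertoires, called here the Nebula repertoire, the Amazo day -4 repertoire and the Amazo-Rocket repertoire. Which animal each came from was not tested, and libraries of 1 repertoire are not independent samples of a treatment.

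TRBV7-10 was carried by 1.05% to 1.62% of clonotypes in the Nebula and Amazo day -4 repertoires and by 0.0370% or less in each library of the Amazo-Rocket repertoire. In Nebula it made up 454 of 30350 clonotypes at day -5, 271 of 18138 at day -4 and 494 of 30488 at day 0. Those shares were 1.50% (95% Wilson interval 1.37 to 1.64), 1.49% (1.33 to 1.68) and 1.62% (1.48 to 1.77), and the intervals overlapped. The Amazo day -4 library held 272 of 26025, or 1.05% (0.929 to 1.18), below the interval of every Nebula library. In the Amazo-Rocket repertoire there were 13 of 35116 clonotypes at Amazo day -5, 2 of 24945 at Amazo day 3, 1 of 17061 at Rocket day -5 and 1 of 36038 at Rocket day -4. Those shares were 0.0370% (0.0216 to 0.0633), 0.00802% (0.00220 to 0.0292), 0.00586% (0.00103 to 0.0332) and 0.00277% (0.000490 to 0.0157). The Amazo day -5 interval overlapped with that of the next library in order, Amazo day 3, and lay above that of Rocket day -4. A library was taken to use the gene at 0.1% of clonotypes or more, and the nearest values above and below that line were the 1.05% of Amazo day -4 and the 0.0370% of Amazo day -5, neither close to it. Intervals cover counting error at most. Those on counts, given further below, treat PCR copies of 1 RNA molecule as independent, which they are not, and can be too narrow.

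**Figure D1:**
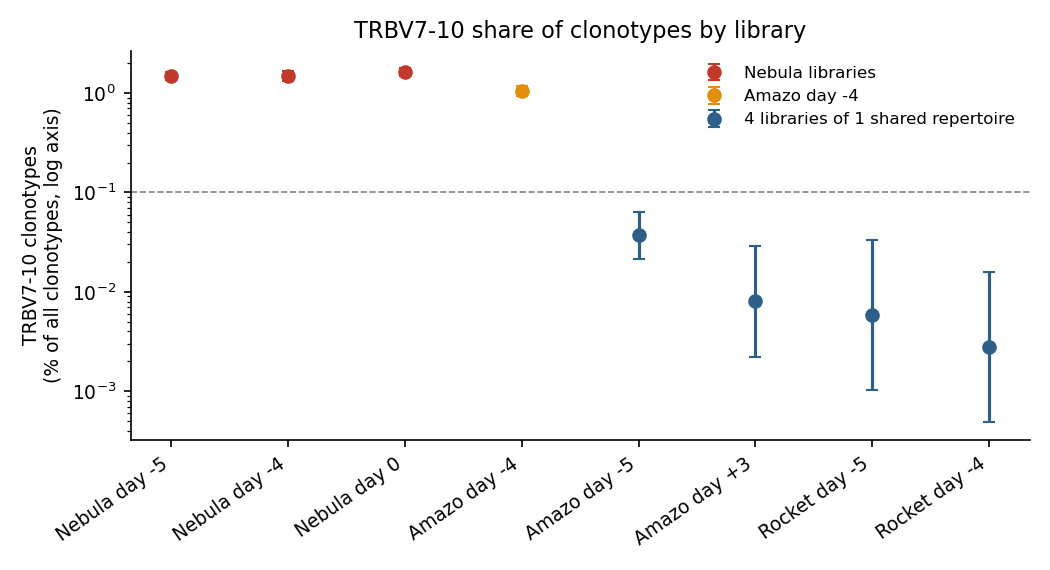
Share of clonotypes with TRBV7-10 as first V gene (percent, log axis) in the 8 libraries taken after infusion; points are shares, bars are 95% Wilson intervals and the dashed line is 0.1%. The 3 Nebula libraries and Amazo day -4 lie at 1.05% or higher, and the 4 libraries of the Amazo-Rocket repertoire at 0.0370% or lower.

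The pattern was the same by count as by clonotype. TRBV7-10 took 7936 of 426198 counts at Nebula day -5 (1.86%), 841 of 42695 at day -4 (1.97%) and 4776 of 258096 at day 0 (1.85%). In Amazo day -4 it took 3127 of 392500 counts (0.797%). The Amazo-Rocket libraries held 77 of 348165 counts (0.0221%) at Amazo day -5, 2 of 303525 (0.000659%) at Amazo day 3, 1 of 556954 (0.000180%) at Rocket day -5 and 7 of 259662 (0.00270%) at Rocket day -4. The library with the most counts, Rocket day -5, thus held a single TRBV7-10 count. Thinned to the 42695 counts of the smallest library, the shares of clonotypes were 1.49% to 1.61% in Nebula, 1.06% in Amazo day -4 and 0.000502% to 0.0410% in the Amazo-Rocket repertoire.

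TRBV7-10 was among a small number of V genes at 0.1% of clonotypes or more in 1 library and under 0.05% in another. Of 57 V genes that reached 0.1% in at least 1 later library, 6 (10.5%) were under 0.05% in another. Some of the 6 only lay on either side of these 2 lines. The names of the others, chosen after their values were seen, were TRBV5-7, TRBV6-4, TRBV6-6, TRBV6-7 and TRBV16. TRBV5-7 ran the other way, at 0 to 0.0231% in Nebula and 0.233% to 0.333% elsewhere. TRBV6-4 (0.00551% to 0.0264% against 0.0586% to 0.127%) and TRBV6-7 (0.0276% to 0.102% against 0.301% to 0.481%) were also lowest in Nebula. TRBV6-6 had both its lowest (0.0441%) and its highest (0.119%) share in Nebula. TRBV16 was at 0.181% to 0.270% in Nebula and Amazo day -4 and at 0.0342% to 0.0638% in the Amazo-Rocket repertoire. By Pearson correlation of log2 shares over the 8 libraries, the genes most like TRBV7-10 were TRBV29-1 (r = 0.97), TRBV4-1 (r = 0.94) and TRBV6-1 (r = 0.92). These are descriptions over 8 libraries that hold 3 repertoires. TRBV6-1, for example, was at 7.50% of clonotypes in Amazo day -4 and at 4.52% to 5.14% in Nebula, against 1.56% to 1.94% in the Amazo-Rocket repertoire.

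The baseline libraries were too small to place the gene. They held 73, 63, 74 and 70 counts, and 3 counts, the smallest number taken as measurable, were 4.05% to 4.76% of them. A share near 1.5%, as in Nebula, was not detectable there. TRBV7-10 was listed in 1 of the 4, as clone M with 8 of 74 counts.

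The clonotypes of the Nebula and Amazo day -4 repertoires were then compared with those of all other V genes in the same library, on measures that did not choose the gene. The unit was the library, with 4 libraries, of which 3 came from the Nebula repertoire. The exact two-sided sign-flip permutation test cannot go below p = 0.125 with 4 libraries, so no difference could pass 0.05. Adjusted values are Benjamini-Hochberg over 5 measures.

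Most TRBV7-10 rearrangements were productive. In Amazo day -4 249 of 272 clonotypes were productive (91.5%, 95% Wilson interval 87.6 to 94.3), as were 91.5% of those of other V genes. The Nebula values were 419 of 454 at day -5 (92.3%, 89.5 to 94.4), 258 of 271 at day -4 (95.2%, 92.0 to 97.2) and 474 of 494 at day 0 (96.0%, 93.8 to 97.4). Other V genes were at 91.1%, 94.6% and 92.2%, and only the day 0 value lay outside the TRBV7-10 interval. The difference was 1.38 ± 1.64 percentage points (mean ± SD, 4 libraries), higher in 4 of 4 but as small as 0.0169 in Amazo day -4 (exact p = 0.125, adjusted p = 0.156). Without Nebula day 0 the mean difference fell to 0.594. Against the other TRBV7 genes it was 3.64 ± 2.43 percentage points, higher in 4 of 4 libraries (exact sign-flip p = 0.125). By count the productive share in Amazo day -4 went the other way, at 91.4% against 94.2% for other V genes. It stayed higher in each Nebula library. Of the nonproductive TRBV7-10 clonotypes most were out of frame, at 3.04% to 6.99% of all its clonotypes, and the remainder held a stop codon.

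Nonproductive clonotypes are part of the clonotypes whose shares chose the gene, so their shares are a description and no separate evidence. TRBV7-10 accounted for 1.04% of nonproductive clonotypes in Amazo day -4, and for 1.30%, 1.33% and 0.850% in Nebula at day -5, day -4 and day 0. That came to 91 nonproductive clonotypes in 4 libraries. In the 4 Amazo-Rocket libraries it was 1 of 9129 nonproductive clonotypes, beside 17 of 113160 clonotypes of all kinds. These libraries share clones, so both totals hold some clonotypes more than once.

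The mean CDR3 length of TRBV7-10 lay below that of other V genes, by less than 1 nucleotide. Among productive clonotypes it measured 42.8 ± 5.16 nucleotides in Amazo day -4 (mean ± SD over 249 clonotypes) and 43.1 ± 5.38, 42.6 ± 5.32 and 42.9 ± 5.36 in Nebula at day -5, day -4 and day 0. Other V genes measured 43.3, 43.4, 43.2 and 43.4 in the same order. The difference of -0.508 ± 0.0899 nucleotides was negative in 4 of 4 libraries (mean ± SD, exact p = 0.125, adjusted p = 0.156) and is far smaller than the spread among clonotypes. The most common length was 42 nucleotides, held by 26.9% to 28.3% of productive TRBV7-10 clonotypes and by 23.5% to 24.8% of the others. Against the other TRBV7 genes the difference was -1.01 ± 0.132 nucleotides, again in 4 of 4 libraries (exact p = 0.125).

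**Figure D2:**
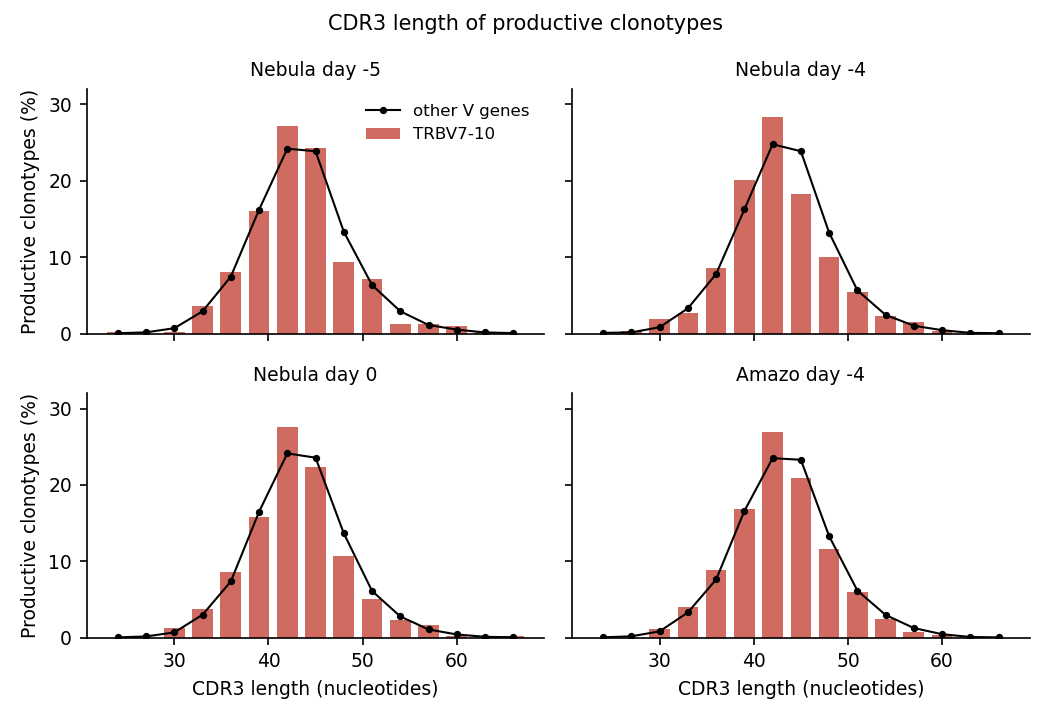
CDR3 length (nucleotides) of productive clonotypes in the 4 libraries of the Nebula and Amazo day -4 repertoires, as the percent of productive clonotypes at each length; bars are TRBV7-10 and the black line is all other V genes. Lengths from 24 to 66 nucleotides are drawn, and both distributions peak at 42.

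Of the joint itself, 2 features were measured after the other values had been seen. The share of TRBV7-10 clonotypes with no D gene assigned was 26.8% in Amazo day -4 and 32.8%, 30.6% and 32.8% in Nebula, against 25.5% to 26.5% under other V genes. The difference was 4.95 ± 2.86 percentage points, higher in 4 of 4 libraries (exact p = 0.125, adjusted p = 0.156). The number of V-assigned bases in CDR3 was 12.8 in Amazo day -4 and 13.1 to 13.3 in Nebula. It exceeded the mean of other V genes by 0.311 ± 0.134 bases (exact p = 0.125), and differed from that of the other TRBV7 genes by -0.0436 ± 0.161 bases (exact p = 0.875).

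All 13 J genes were joined to TRBV7-10. The J genes lie in 2 clusters, TRBJ1 and TRBJ2, each behind its own D and before its own constant gene. TRBJ2 genes were in 67.3% of TRBV7-10 clonotypes in Amazo day -4 (61.9% for other V genes), and in 56.6%, 57.2% and 56.3% in Nebula (57.3%, 57.6% and 57.2%). The difference of 0.812 ± 3.03 percentage points was positive in 1 library and negative in 3 (exact p = 1), and without Amazo day -4 it was -0.699. Against the other TRBV7 genes the difference was negative in 4 of 4 libraries, at -0.397 percentage points in Amazo day -4 and -8.73 to -7.18 in Nebula (exact p = 0.125).

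TRBJ1-2 (10.1% against 8.02% of clonotypes, means of 4 libraries), TRBJ2-4 (10.2% against 9.20%) and TRBJ2-7 (13.9% against 11.5%) were higher with TRBV7-10 in 4 of 4 libraries. TRBJ2-6 (2.31% against 3.68%) and TRBJ1-3 (3.90%, with a difference of -2.10 percentage points) were lower in 4 of 4. The other 8 had no common sign. No J gene passed the test (exact p of 0.125 or more, adjusted p of 0.325 or more over 13 genes).

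**Figure D3:**
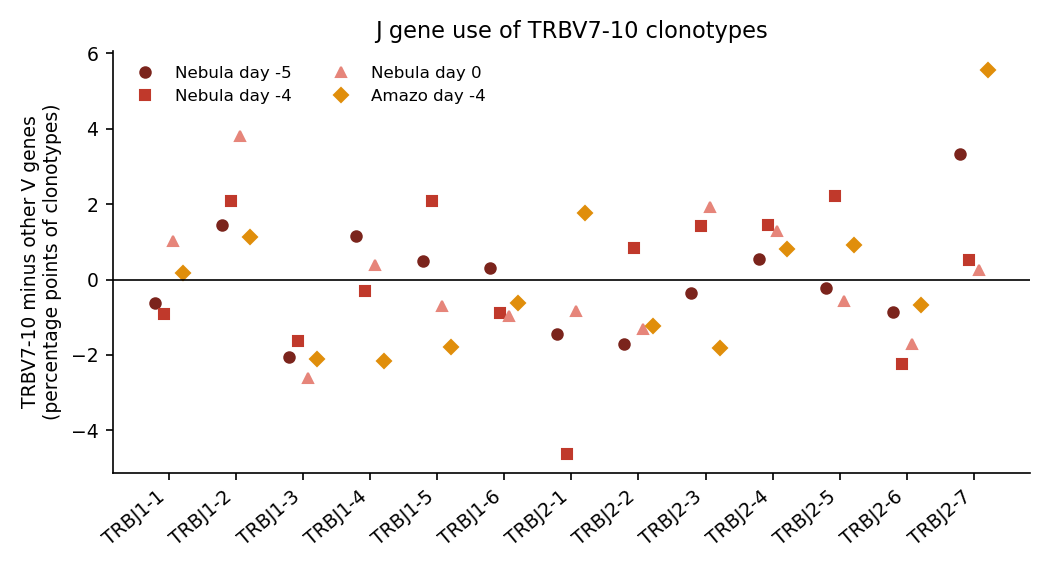
Difference in J gene use between TRBV7-10 clonotypes and clonotypes of all other V genes (percentage points of clonotypes) for 13 J genes, 1 point per library of the Nebula and Amazo day -4 repertoires. TRBJ1-2, TRBJ2-4 and TRBJ2-7 lie above 0 and TRBJ1-3 and TRBJ2-6 below 0 in 4 of 4 libraries.

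The sizes of TRBV7-10 clones set the 2 repertoires apart. The median count per clonotype equalled that of other V genes, at 10 in Amazo day -4 and 12, 2 and 7 in Nebula at day -5, day -4 and day 0. In Nebula the 3 largest clones held 21.7%, 27.7% and 17.1% of TRBV7-10 counts at those days, and in Amazo day -4 4.92%. The 3 largest were clones A, B and C at every Nebula day. The largest 73, 40 and 90 clonotypes in Nebula, and the largest 71 in Amazo day -4, together reached 50% of TRBV7-10 counts. The Amazo day -4 number thus lay within the Nebula range. Whether the largest clones of other V genes differed in the same way was not tested.

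**Figure D4:**
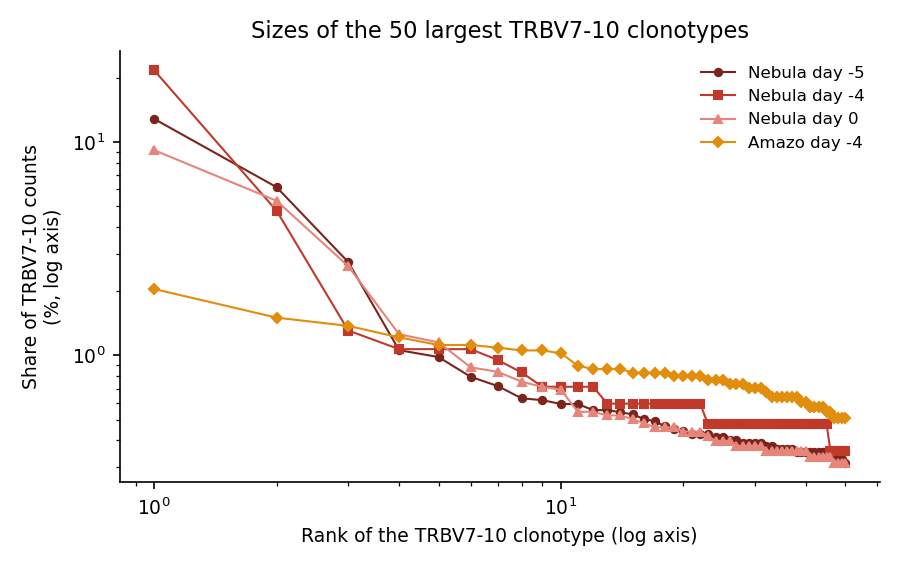
Share of TRBV7-10 counts (percent, log axis) taken by each of the 50 largest TRBV7-10 clonotypes, by rank (log axis), in the 4 libraries of the Nebula and Amazo day -4 repertoires. The largest clone takes 9.15% to 21.6% in Nebula and 2.05% in Amazo day -4.

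Clone A, which used TRBJ1-3, was among the larger clones of the whole Nebula repertoire. It held 0.239% of all counts at day -5 (95% Wilson interval 0.224 to 0.254), 0.426% at day -4 (0.369 to 0.493) and 0.169% at day 0 (0.154 to 0.186), ranking 6, 5 and 11 in the library. Its intervals did not overlap, but intervals on counts can be too narrow, and with 1 library a day they compare libraries and not days. Clone B, with TRBJ2-4, held 0.114% (0.105 to 0.125), 0.0937% (0.0688 to 0.128) and 0.0980% (0.0867 to 0.111), with overlapping intervals. Clone C, also with TRBJ2-4, held 0.0509%, 0.0258% and 0.0484%. Clone D, the largest of Amazo day -4, had 64 counts (0.0163%) and was out of frame, so it could encode no receptor. Clone E followed with 47 counts. Among the 10 largest TRBV7-10 clones, 2 were nonproductive in Amazo day -4 and 0 in each Nebula library. Among all TRBV7-10 clonotypes it was 23 of 272 in Amazo day -4, and 35 of 454, 13 of 271 and 20 of 494 in Nebula. The largest clones of other V genes were not examined, so these small counts are a description only.

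The Nebula clones recurred between days. Of 1151 distinct TRBV7-10 CDR3 sequences, 55 were found in 2 or 3 Nebula libraries (4.78%, 95% Wilson interval 3.69 to 6.17), and 13 in 3. For other V genes the share was 4.14% (4.00 to 4.28), inside that interval. The V call was stable between these libraries: of the TRBV7-10 sequences of day -5, 27 of 27 found at day -4 and 35 of 35 found at day 0 were again called TRBV7-10. From day 0, 35 of 37 found at day -5 were.

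What the Amazo-Rocket repertoire held in place of TRBV7-10 was described from the V hits, since no germline sequence of the gene was used here. Each of the 1508 TRBV7-10 clonotypes after infusion listed allele 01 and no other V gene, whereas 8.44% to 13.9% of clonotypes of other V genes per library listed a second one. Other TRBV7 genes varied widely in this. The share with a second V gene per library was 0.730% to 3.28% in TRBV7-6, 1.56% to 8.19% in TRBV7-9 and 37.3% to 83.3% in TRBV7-7. In the other direction, TRBV7-10 was listed as a later hit in 1 clonotype in all 8 libraries, in Rocket day -4. The hit lists thus named almost no clonotype as a close call between TRBV7-10 and another gene. Whether reads of a TRBV7-10 allele unlike the reference were listed under another gene was not tested.

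Of the 6 other TRBV7 genes, 3 were higher in the Amazo-Rocket repertoire and 3 overlapped. TRBV7-3 was at 1.67% to 1.77% of clonotypes in Nebula, 2.54% in Amazo day -4 and 3.34% to 3.89% in the Amazo-Rocket libraries. TRBV7-5 was at 0.485% to 0.557%, 0.622% and 1.16% to 1.23%, and TRBV7-6 at 0.928% to 1.01%, 1.34% and 1.54% to 1.62%. These were the 3 of 6 whose values in the Amazo-Rocket libraries did not overlap with those in the other 4, and all 3 were higher in the former. The share was 46.4% over all 56 other V genes, so 3 of 6 is no result about the subgroup. TRBV7-4 (1.87% to 2.25%, 2.45%, and 2.39% to 2.64%), TRBV7-7 (0.364% to 0.514%, 0.957%, and 0.832% to 1.11%) and TRBV7-9 (0.764% to 0.777%, 1.48%, and 0.780% to 0.850%) overlapped.

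The summed share of the TRBV7 genes was compared with and without TRBV7-10. Without it the sum was 6.35% to 6.64% in Nebula, 9.39% in Amazo day -4 and 10.4% to 10.8% in the Amazo-Rocket repertoire. With it the sum was 10.4% in Amazo day -4, at the level of the Amazo-Rocket repertoire, and 7.85% to 8.26% in Nebula, still below it. Whether TRBV7-10 rearrangements of the Amazo-Rocket repertoire were called under another TRBV7 gene cannot be told apart from other differences between animals in V use. Alignment scores overlapped between the repertoires. In TRBV7-3, for example, the median score per library was 659 to 865 in the Nebula and Amazo day -4 repertoires and 684 to 817 in the Amazo-Rocket libraries. These lay below the medians of TRBV7-4, TRBV7-5, TRBV7-6 and TRBV7-9, at 1096 to 1260. A median per library cannot show whether a minority of clonotypes was called under another gene.

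**Figure D5:**
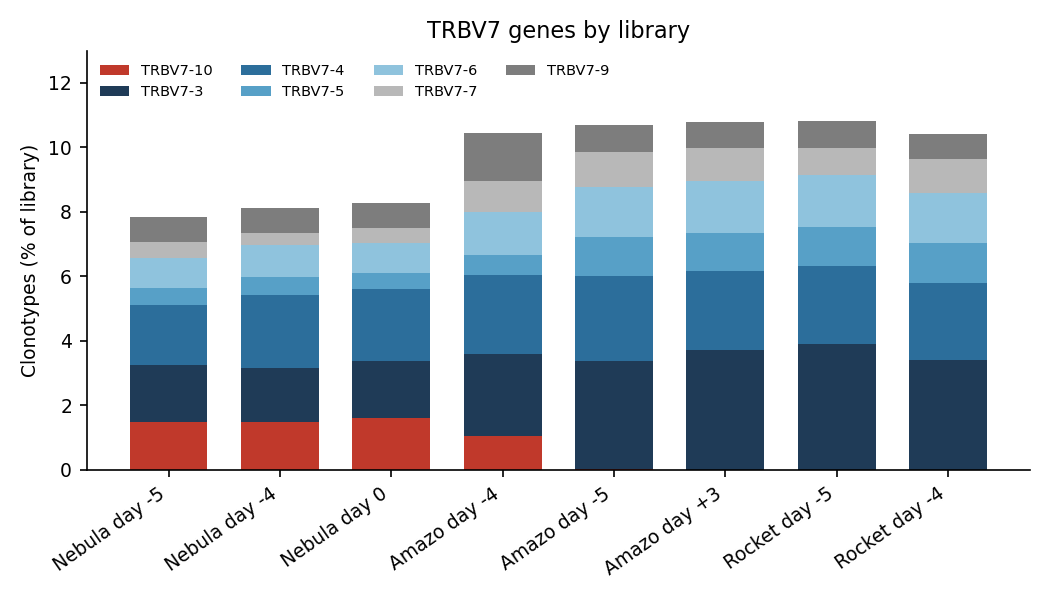
Clonotypes of each TRBV7 gene (percent of the library's clonotypes, stacked) in the 8 libraries taken after infusion. TRBV7-10, at the foot of each bar, is visible only in the Nebula libraries and Amazo day -4; the whole bar reaches 7.85% to 8.26% in Nebula and 10.4% to 10.8% in the others.

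The start of CDR3 was also searched under other V genes. The letters tgtgccagcagc, the first 12 bases shared by most TRBV7 genes, opened 79.1% to 82.8% of TRBV7-10 clonotypes in the Nebula and Amazo day -4 libraries, and 9 of 13 in Amazo day -5. They opened 38.9% of clonotypes of other V genes in Amazo day -4, 39.9%, 41.8% and 40.3% in Nebula, and 41.5%, 41.1%, 41.2% and 41.3% in Amazo day -5, Amazo day 3, Rocket day -5 and Rocket day -4. The difference of -1.01 percentage points between 40.3 ± 1.20 and 41.3 ± 0.145 (mean ± SD, 4 libraries each) did not pass an exact two-sided permutation test (p = 0.143, with 0.0286 the smallest possible). The libraries were grouped by TRBV7-10 use and share clones within a repertoire, and the sign turned when clonotypes were weighted by count (1.97) or 9 bases were searched (0.717).

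TRBV7-10 sequences found in more than 1 repertoire were counted next. The Nebula and Amazo day -4 repertoires had 2 in common under TRBV7-10, of 1151 in the former and 272 in the latter, and 1 of the 2 was clone A, the largest of Nebula, with 1 count in Amazo day -4. Of 1421 distinct TRBV7-10 sequences in the Nebula and Amazo day -4 libraries, 13 (0.915%) occurred in an Amazo-Rocket library, 6 of them under TRBV7-10 and 7 under another V gene only. Those 7 were under TRBV9, TRBV7-6, TRBV5-1, TRBV7-3, TRBV7-7 and TRBV11-2, with more than 1 sequence each under TRBV9 and TRBV7-6. A sequence called TRBV7-6 in Amazo day -5 was TRBV5-1 in Rocket day -4. Another, called TRBV7-7 in Amazo day -5, was TRBV7-3 in Amazo day 3. For the other TRBV7 genes the share found ran from 0.517% (TRBV7-9) to 1.62% (TRBV7-4), with 1 of 4 (TRBV7-7) to 10 of 13 (TRBV7-6) under the same V gene.

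The 17 TRBV7-10 clonotypes of the Amazo-Rocket libraries, 87 counts in all, were followed one by one. Clones I, J, K and L in Amazo day -5, with 8, 7, 6 and 4 counts, were all found under TRBV7-10 in Amazo day -4, with 4, 5, 8 and 23 counts. That is 4 of the 13 of Amazo day -5, a library that shared 265 clonotypes of all V genes with Amazo day -4, while Amazo day -4 shared 27 to 86 with each of the other 6. Another of the 13 was called TRBV7-4 in Amazo day -4, and 8 were in no other library. The 13 had 2 to 11 counts each, with a median of 5. Both clonotypes of Amazo day 3, clones F and G, had 1 count and occurred in Nebula. Clone F was also the single count of Rocket day -5, and had 63 counts in Nebula day -5 and 26 in Nebula day 0. Clone G was TRBV7-10 in Nebula day 0 and TRBV14 in Nebula day -5 and day -4. Clone H of Rocket day -4, with 7 counts and TRBJ1-4, was in no other library.

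In all, 7 of the 17 (41.2%) were found under TRBV7-10 in a Nebula or Amazo day -4 library. The share was 17.6% without Amazo day -4 and 75% without Amazo day -5. Whether the shared sequences were carried over between libraries, or arose in separate cells, was not tested.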

How the data were processed

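TRB transcripts were enriched from template-switched cDNA of PBLs and sequenced on a MiSeq. The authors trimmed reads (Trimmomatic) and profiled clones by MiXCR, with known rhesus TRB segments as reference. The deposited count per clone is a whole number and was not normalized, and the deposited clone fraction is that count over the library total. The study describes collapsing by molecular barcode and a 0.5% clone threshold. The tables held clones far below it and no barcode column. Total counts were 63 to 74 at baseline and 42695 to 556954 afterwards. V, D and J genes were the first hits. Neither the gene's position in the genome nor its germline sequence was used here. A clonotype was productive if its CDR3 was in frame without a stop codon.

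Shares carry 95% Wilson intervals. Libraries were compared by exact permutation tests with Benjamini-Hochberg adjustment, checked on data with known answers (Python 3.11.15, numpy 2.4.6, pandas 2.3.3, scipy 1.17.1, matplotlib 3.10.9). Libraries that used TRBV7-10 had it in at least 0.1% of clonotypes and held at least 50 of its clonotypes. Correlations used log2(percent + 0.001). Named were all TRBV7 genes, the 3 V genes most correlated with TRBV7-10, V genes sharing its hit lists, and up to 5 of its largest clonotypes per library, with others chosen for being shared. The gene, lists and rules were chosen with earlier results of these data known. Alternatives were weighting by count, productive or sole-hit clonotypes, at least 2 counts, thinning, thresholds of 0.05% and 0.5%, at least 20 clonotypes, other TRBV7 genes as comparator, 9 or 15 bases, other matches of CDR3, and leaving out libraries.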

Additional observations from a re-analysis of the deposited data

Results flagged for a closer look

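In baseline library 3, TRBV7-10 took 10.8% of counts (8 of 74, 95% Wilson interval 5.58 to 19.9), and it took 0 in the other 3 baseline libraries, which allow up to 4.11%, 4.76% and 4.29% (3 counts). The library was listed because it stood apart from the other 3, but with those at 0 any count in a single library would do so, and no chance rate applies. All 8 counts were clone M, the largest clone of that library. Its V alignment score was 320.5, against a median of 297 for the library's other clonotypes, of which 38.1% listed a second V gene. TRBV7-10 clonotypes of the Nebula and Amazo day -4 libraries had median scores of 1155 to 1210, far above that of clone M, whose V call is uncertain.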

How the results depend on the processing

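The 7 results were recomputed under 107 alternatives, and 98 neither changed direction nor crossed the threshold, or stayed within the spread between libraries. Many of the 98 could not differ. The sole-hit rule, the thresholds of 0.05% and 0.5% and the minimum of 20 clonotypes selected the same clonotypes or libraries. Leaving out an Amazo-Rocket library could not change differences taken within the Nebula and Amazo day -4 libraries. Those differences could not pass 0.05 in the exact sign-flip test under any alternative. The count of 98 is thus no measure of stability. TRBJ2 use, 0.812 percentage points above other V genes, turned to -0.699 without the libraries labelled Amazo, -6.17 against the other TRBV7 genes and -0.514 by count. The CDR3 start under other V genes, at -1.01 percentage points, turned to 1.97 by count and 0.717 with 9 bases. The cause was not tested. Leaving out 1 library at a time, the ranges were 1.33 to 1.52 for the difference in TRBV7-10 share (1.40 percentage points with all libraries), 0.594 to 1.83 for the productive share, -0.548 to -0.475 nucleotides for CDR3 length, -0.699 to 1.40 for TRBJ2, 0 to 0 for TRBV7-10 clonotypes with a second V gene, -1.53 to -0.567 for the CDR3 start and 17.6% to 75% for clonotypes shared with a library that used the gene. Without Nebula day -4 the CDR3 start reached the smallest p of that comparison (-1.53, exact permutation p = 0.0286). That test took libraries of 1 repertoire as independent and grouped them by TRBV7-10 use, so no difference between repertoires can be read from it. No paired analysis was possible between libraries that used the gene and the others, because only the name Amazo occurs in both; the other tests took differences within each library. Depth limits the baseline libraries most. With 4 libraries from 2 repertoires, no difference within libraries could pass 0.05.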
